A study of Mus musculus with 8 samples.

Results

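Of the 5457 genes in the deposited expression table of this mouse muscle study, 65 carry symbols of chromatin modifiers and remodelers. They were picked out by a rule on the symbol, which was set with earlier results of these data known. They comprise 10 histone demethylases (Kdm), 7 histone methyltransferases (Kmt, Setd, Smyd), 7 Polycomb and heterochromatin proteins (Ezh, Suz12, Cbx), 11 genes of the SWI/SNF family and ARID proteins (Smarc, Arid), 8 CHD remodelers, 5 histone deacetylases (Hdac), 3 bromodomain proteins (Brd, Atad2), 6 genes named for DNA methylation factors (Dnmt, Tet, Uhrf) and 8 high mobility group proteins (Hmga, Hmgb, Hmgn). A symbol rule also takes in genes that do other work. Uhrf1bp1l is named for binding to Uhrf1 and is no DNA methylation factor, and Hmga2-ps1 is a pseudogene of Hmga2 whose reads cannot be told apart from those of Hmga2 where the sequences are alike. The mouse annotation holds 129 protein-coding symbols that fit the rule, of which 64 are listed, and the pseudogene makes up the 65. The authors' mean of each listed gene is 2-fold or more away from that in Tw2_GM in some group, and every gene tested reached 10 CPM in at least 4 of the 8 libraries. Chromatin genes with smaller differences or lower levels were not analysed here. Of the 65 genes, 7 reached 10 CPM in growth medium libraries only (Atad2, Hmga1, Hmga2-ps1, Hmgb2, Hmgb3, Hmgn3 and Uhrf1) and 4 in Tw2 libraries only (Arid4a, Arid4b, Kdm7a and Tet2). Each of these 11 is listed through the groups where it is high.

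The sequenced RNA came from sorted tdTomato-positive cells of adult C57BL/6 mouse hind limb, in 4 groups of 2 libraries. Tw2_48 and Tw2_GM came from mice of genotype Tw2-CreERT2/+;R26-tdTO+, and Pax7_48 and Pax7_GM from mice of genotype Pax7-CreERT2/+;R26-tdTO+. All mice had 3 tamoxifen treatments, 10 days before the muscle was taken. The sorted cells were plated on Matrigel, where GM stands for growth medium, Ham's F10 with 20% fetal bovine serum. The labels also describe a differentiation medium, which held high glucose DMEM, 2% horse serum and bFGF. The 48 cultures are named by that number, which only the Tw2 titles give in hours, and their medium is not stated. In both genotypes Cre is driven by the named gene and marks cells for good, so a tdTomato-positive cell need not express Tw2 (Twist2) or Pax7 at harvest. The labels do not say whether the 2 libraries of a group came from separate mice or cultures, so the p-values measure the spread between these libraries, which may be technical.

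Chromatin modifiers add or remove methyl and acetyl groups on histones and DNA, and remodelers use ATP to move or evict nucleosomes. In muscle, dividing myoblasts carry Polycomb repression at muscle genes through the methyltransferase Ezh2, and class IIa deacetylases such as Hdac5 and Hdac7 bind and hold back the muscle transcription factor Mef2. Maintenance of DNA methylation by Uhrf1 and Dnmt1, and several high mobility group proteins, are tied to DNA replication and to dividing cells.

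Each deposited group mean of CPM, read counts scaled to library size, was taken apart into the whole reads of its 2 libraries, called deeper and shallower, and pairs of values are given in that order. Sizes implied for the libraries were 13.7 and 9.40 M reads in Tw2_48, 12.2 and 11.3 M in Tw2_GM, 10.6 and 7.64 M in Pax7_48, and 7.38 and 5.18 M in Pax7_GM. A chromatin gene held between 4 and 12140 reads in a library. The median absolute log2 ratio between the 2 libraries of a group over the 65 genes was 0.147 in Tw2_48, 0.149 in Tw2_GM and 0.111 in Pax7_48. It was 0.449 in Pax7_GM, where 42 of the 65 genes were lower in the deeper library. The Pax7_GM libraries therefore stand apart. Some results that rest on them are also given without 1 of them. Leaving out 1 of these 2 libraries changed further calls on single genes that are not printed here. GC content and transcript length accounted for 0.292 of the variance of log2 CPM, relative to each gene's mean, in the deeper Pax7_GM library and 0.0587 in the shallower. The share was 0.205 and 0.16 in Tw2_GM, 0.136 and 0.164 in Pax7_48, and 0.0629 and 0.0464 in Tw2_48. The trend was thus not confined to the Pax7_GM libraries. Pax7, the satellite cell transcription factor, was at 113 and 109 CPM in Tw2_GM, compared with 117 and 112 CPM in Pax7_GM. No endothelial or glial marker of the lists used is among the listed genes, and of the immune markers only Itgam is listed. Itgam was at 0 in both Tw2_GM libraries, which allows up to 0.246 and 0.266 CPM, and at 22.8 and 18.1 CPM in Tw2_48. In the Pax7 lineage it was at 0.542 and 0.579 CPM in Pax7_GM and at 15.9 and 11.9 CPM in Pax7_48. Itgam thus rose at 48 in both lineages, with log2 fold changes of 4.41 (Tw2) and 3.24 (Pax7). In bulk RNA, fewer cells of a type and less RNA per cell cannot be told apart.

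At 48 more of the listed chromatin genes had fallen than had risen, in both lineages. The counts describe the listed genes, because 7 of them reached 10 CPM in growth medium libraries only and 0 in 48 libraries only. These 7 are listed through growth medium, and all of them are counted as falling in both lineages. In the Tw2 lineage 39 of the 65 genes fell and 9 rose at an adjusted p under 0.05 (limma on log2(CPM + 1), Benjamini-Hochberg over 5452 genes). Over all genes tested 48.9% fell and 35.3% rose in this comparison. The median log2 fold change of the chromatin genes was -0.97, against -0.49 over all genes tested. In the Pax7 lineage 31 fell and 13 rose (23 rose without the shallower Pax7_GM library), where 40.5% of all genes tested fell and 38.8% rose, a share of falling genes not far above that of all genes, with a median of -0.45 against 0.01. The 31 genes that fell in the Pax7 lineage also fell in the Tw2 lineage, where they were 79.5% of those that fell, and no gene moved in opposite directions in the 2 lineages. The 9 that rose in the Tw2 lineage were Smyd1, Hdac11, Chd3, Ezh1, Kdm4b, Kdm4c, Hdac5, Tet2 and Chd7. All of them also rose in the Pax7 lineage, where they were 69.2% of the genes that rose. Of all genes tested, 39.4% fell in both lineages, 33.2% rose in both and 0.422% moved in opposite directions. Those that fell in both were 80.6% of all genes that fell in the Tw2 lineage. Those that rose in both were 85.75% of all genes that rose in the Pax7 lineage.

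**Figure D1:**
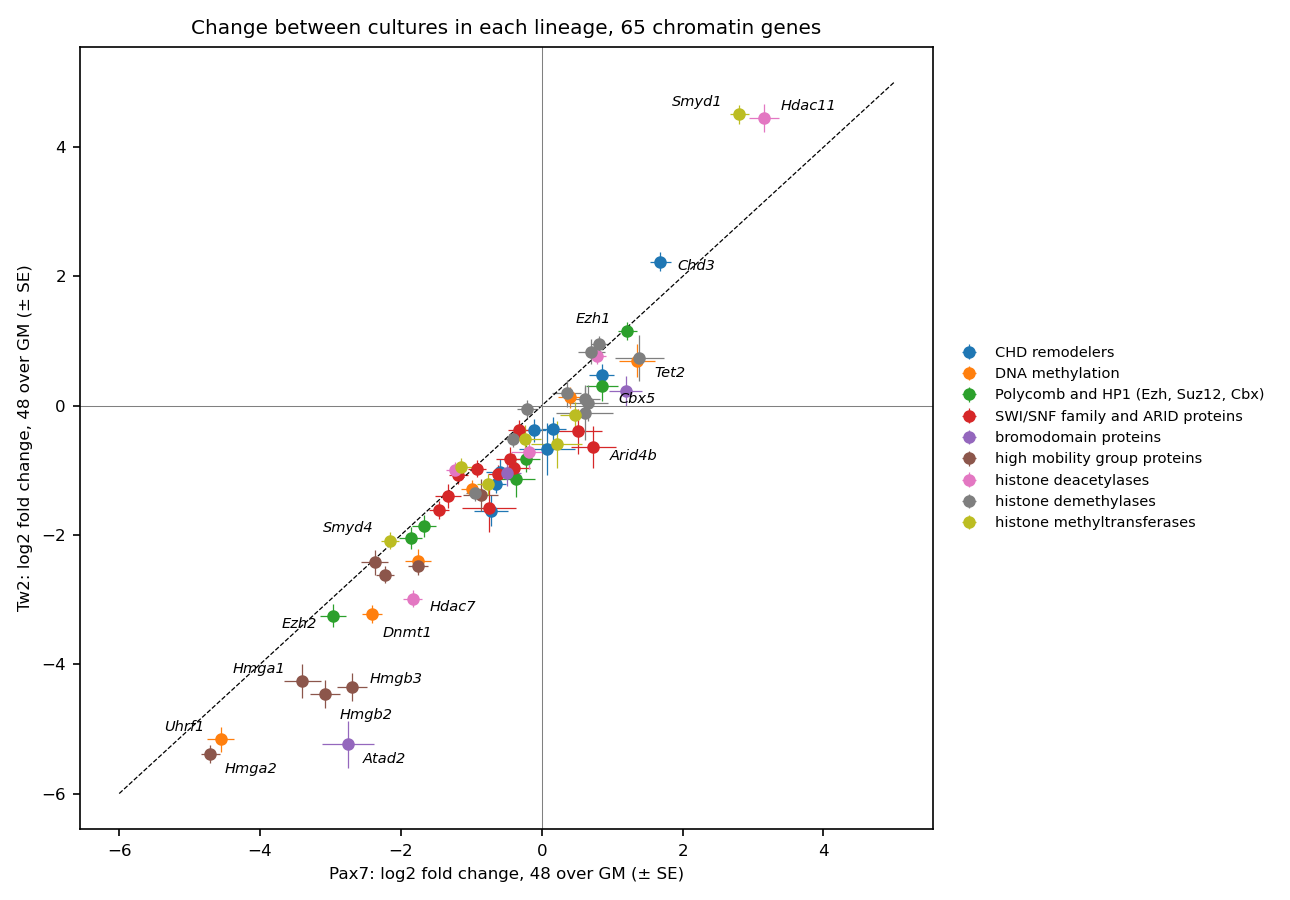
Log2 fold change of 48 cultures over growth medium for each of the 65 chromatin genes, with the Tw2 lineage on the vertical axis and the Pax7 lineage on the horizontal axis. Points are limma estimates with bars of 1 SE, coloured by class, and the dashed line marks equal change. Smyd1 and Hdac11 lie far up in both lineages, Hmga2 and Uhrf1 far down in both, and Atad2 lies well below the line.

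All 8 listed high mobility group genes were lower at 48 in each lineage, beside 48.9% (Tw2) and 40.5% (Pax7) of all genes tested. The count is a description of the listed genes: 5 of the 8 (Hmga1, Hmga2-ps1, Hmgb2, Hmgb3 and Hmgn3) reached 10 CPM in growth medium only, and Hmga2-ps1 may hold reads of Hmga2. Hmga proteins bend AT-rich DNA and Hmga2 is a mark of growing mesenchymal and stem cells. Hmga2 was at 18.8 and 17.2 CPM in Tw2_48, compared with 789 and 798 CPM in Tw2_GM. In the other lineage it was at 14.8 and 16.1 CPM in Pax7_48, against 396 and 466 CPM in Pax7_GM. All 4 libraries of the 48 cultures lay far under the 4 of growth medium, and the log2 fold change of -5.39 ± 0.14 (SE) was the most negative of the 65 genes in the Tw2 lineage (limma adjusted p = 1.49e-08). It was also the most negative in the Pax7 lineage, at -4.71 ± 0.14 (limma adjusted p = 1.98e-07).

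Hmgb2 and Hmgb3, nucleosome-bending proteins of dividing cells, fell to a few CPM or less. Hmgb2 was at 1.82 and 1.49 CPM in Tw2_48, compared with 58.0 and 56.6 CPM in Tw2_GM. It was at 1.03 and 1.05 CPM in Pax7_48, against 12.5 and 21.0 CPM in Pax7_GM. Neither pair of groups overlapped, and the log2 fold changes were -4.46 ± 0.22 in the Tw2 lineage and -3.08 ± 0.22 in the Pax7 lineage (limma adjusted p = 2.75e-07 and 3.45e-06). Hmgb3 was at 1.75 and 1.06 CPM in Tw2_48, compared with 47.3 and 47.8 CPM in Tw2_GM, and it was at 2.63 and 1.44 CPM in Pax7_48, against 17.5 and 18.9 CPM in Pax7_GM. Its groups did not overlap either, and its log2 fold changes were -4.35 ± 0.21 and -2.69 ± 0.21.

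Hmga1 was at 0.728 and 0.426 CPM in Tw2_48, compared with 31.5 and 26.7 CPM in Tw2_GM. In the Pax7 lineage it was at 1.79 and 0.917 CPM in Pax7_48, against 29.8 and 18.3 CPM in Pax7_GM. The 48 libraries were the lowest 4 in this gene, and its log2 fold changes were -4.26 ± 0.26 in the Tw2 lineage and -3.40 ± 0.26 in the Pax7 lineage. The pseudocount of 1 makes these folds smaller than the ratio of the CPM values. The nucleosome-binding Hmgn genes fell less, with log2 fold changes of -2.61 (Hmgn1), -2.48 (Hmgn2) and -1.38 (Hmgn3) in the Tw2 lineage and -2.23, -1.76 and -0.86 for the same genes in the Pax7 lineage, where the Hmgn3 call was lost without the shallower Pax7_48 library (-0.71, limma adjusted p = 0.0824). Hmga1, the Hmgb genes and the Hmgn genes have near-identical copies or pseudogenes elsewhere in the genome, so their counts are uncertain to the extent that the authors' counting split such reads.

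**Figure D2:**
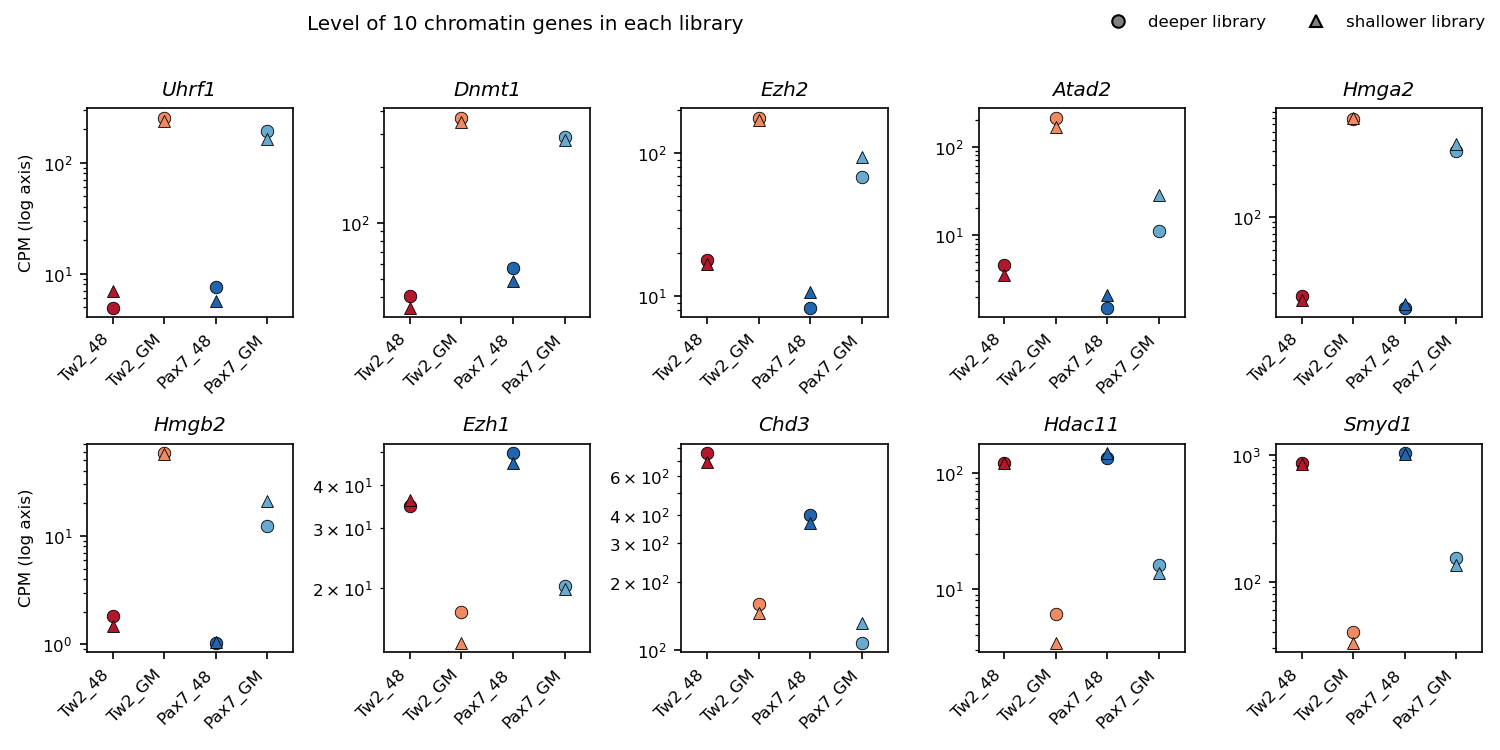
Level in CPM, on a log axis, of 10 chromatin genes in each of the 8 libraries, with 1 panel per gene and the groups in the order Tw2_48, Tw2_GM, Pax7_48 and Pax7_GM. Circles are the deeper and triangles the shallower library of a group. In the panels of Uhrf1, Dnmt1, Ezh2, Atad2, Hmga2 and Hmgb2 both 48 groups lie below both growth medium groups, and in those of Ezh1, Chd3, Hdac11 and Smyd1 above them.

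Among the DNA methylation factors, those of replicating DNA fell and a demethylating enzyme rose. Uhrf1, which reads half-methylated DNA behind the replication fork and recruits Dnmt1, was at 4.95 and 7.02 CPM in Tw2_48, compared with 253 and 239 CPM in Tw2_GM. It was at 7.61 and 5.63 CPM in Pax7_48, against 192 and 164 CPM in Pax7_GM. The 48 libraries of both lineages lay far under the others, and the log2 fold changes were -5.16 ± 0.19 (limma adjusted p = 6.90e-08) and -4.56 ± 0.19 (limma adjusted p = 3.16e-07). Uhrf1 reached 10 CPM in growth medium libraries only and is listed through them, so these p-values are no separate support for its fall. Dnmt1, the maintenance methyltransferase, was at 40.1 and 34.9 CPM in Tw2_48, compared with 367 and 351 CPM in Tw2_GM. It was at 57.0 and 48.8 CPM in Pax7_48, against 291 and 280 CPM in Pax7_GM. Its log2 fold changes were -3.23 ± 0.14 in the Tw2 lineage and -2.41 ± 0.14 in the Pax7 lineage, with no overlap between cultures. Uhrf2, the relative of Uhrf1, also fell in both, with log2 fold changes of -1.29 in the Tw2 and -0.996 in the Pax7 lineage.

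Tet2, which oxidises methylcytosine, was at 33.5 and 30.8 CPM in Tw2_48, compared with 23.8 and 15.8 CPM in Tw2_GM, and it was at 7.89 and 8.12 CPM in Pax7_48, against 1.76 and 3.47 CPM in Pax7_GM. The 48 libraries were the higher ones in each lineage, with log2 fold changes of 0.70 ± 0.25 (limma adjusted p = 0.0307) and 1.36 ± 0.25 (limma adjusted p = 0.00118). The call in the Tw2 lineage was lost without either Tw2_48 library, either Pax7_48 library or the shallower Tw2_GM library, with limma adjusted p of 0.0515 to 0.214. Tet3 had log2 fold changes of 0.13 and 0.40, neither called.

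Windows at an annotated start are shown for Uhrf1, Dnmt1 and Ezh2, which fell in both lineages, and for Hdac11 and Smyd1, which rose most. Each is the RefSeq window of 250 bases before to 50 after a gene start, build GRCm38.p6, on the gene's strand: chr17:56304063-56304362 (+) for Uhrf1, chr9:20952574-20952873 (-) for Dnmt1, chr6:47594981-47595280 (-) for Ezh2, chr6:91156565-91156864 (+) for Hdac11 and chr6:71262232-71262531 (-) for Smyd1. Capitals mark the letters TTTGGCGC, TTTCGCGC or TTTCCCGC, of the kind that E2F factors of the cell cycle bind, on either strand, and in Hdac11 the E-box letters CAGCTG, of the kind that MyoD and myogenin bind. The Smyd1 window holds neither. The falling genes shown were not picked by the size of their change, and each of them holds E2F-type letters. Hmga2 and Atad2, which fell further in the Tw2 lineage, and Hmgb2 and Hmgb3 are not among the genes with such a match. Not every chromatin gene had a window to search.
Uhrf1: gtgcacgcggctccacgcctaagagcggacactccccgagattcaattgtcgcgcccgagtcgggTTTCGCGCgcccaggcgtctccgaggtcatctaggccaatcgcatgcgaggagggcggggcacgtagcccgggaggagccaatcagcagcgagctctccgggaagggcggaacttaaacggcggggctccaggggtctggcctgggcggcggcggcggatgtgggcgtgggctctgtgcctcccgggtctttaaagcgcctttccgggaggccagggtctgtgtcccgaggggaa
Dnmt1: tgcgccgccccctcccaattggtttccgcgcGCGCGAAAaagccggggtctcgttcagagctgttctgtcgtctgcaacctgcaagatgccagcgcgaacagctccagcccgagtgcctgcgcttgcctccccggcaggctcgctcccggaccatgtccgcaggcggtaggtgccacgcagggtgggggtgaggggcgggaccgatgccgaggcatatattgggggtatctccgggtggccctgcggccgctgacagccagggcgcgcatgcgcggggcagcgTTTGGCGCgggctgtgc
Ezh2: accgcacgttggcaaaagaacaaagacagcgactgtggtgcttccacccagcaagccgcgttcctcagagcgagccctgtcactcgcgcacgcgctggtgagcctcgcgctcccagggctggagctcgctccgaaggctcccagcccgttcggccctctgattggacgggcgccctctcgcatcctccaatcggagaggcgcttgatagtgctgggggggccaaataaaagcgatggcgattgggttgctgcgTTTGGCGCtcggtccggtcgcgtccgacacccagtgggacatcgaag
Hdac11: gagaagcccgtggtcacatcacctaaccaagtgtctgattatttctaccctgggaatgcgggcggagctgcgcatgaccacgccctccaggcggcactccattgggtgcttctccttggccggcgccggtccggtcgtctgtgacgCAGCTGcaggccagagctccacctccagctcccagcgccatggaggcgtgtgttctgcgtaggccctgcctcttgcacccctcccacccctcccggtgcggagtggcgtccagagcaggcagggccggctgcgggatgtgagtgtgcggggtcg
Smyd1: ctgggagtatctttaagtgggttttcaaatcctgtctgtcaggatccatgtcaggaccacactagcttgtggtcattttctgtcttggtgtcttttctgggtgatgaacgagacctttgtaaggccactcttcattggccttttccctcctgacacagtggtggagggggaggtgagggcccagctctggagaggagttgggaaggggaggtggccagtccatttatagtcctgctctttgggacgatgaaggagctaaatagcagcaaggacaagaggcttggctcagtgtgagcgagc

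The E2F-type letters were found in 6 of 66 windows of 49 chromatin genes (9.09%), those of Uhrf1, Dnmt1, Ezh2, Suz12, Arid1a and Smarcd1, and in 1.85% of all 32841 windows. Of these 6 genes 6 were lower at 48 in the Tw2 lineage and 5, all but Suz12, in the Pax7 lineage, beside 39 and 31 of all 65 chromatin genes and 48.9% and 40.5% of all genes. CAGCTG, which reads the same on both strands, was in 14 of the 66 windows (21.2%) and in 16.3% of all windows. Of the 13 genes with it, 7 fell and 2 rose in the Tw2 lineage, and 7 fell and 3 rose in the Pax7 lineage, so genes with these letters moved both ways. A window with several matches counts once, and where a gene has several windows the one with most matches is printed. The Dnmt1 window is 1 of 3 and lies inside the annotated gene, which runs from 20907209 to 20959888 on the minus strand. That of Smyd1 also lies inside its gene, which runs from 71213940 to 71322233 on the minus strand. The Uhrf1 window is 1 of 2 and lies inside its gene too, which runs from 56303321 to 56323486 on the plus strand. So does that of Ezh2, whose gene runs from 47530139 to 47595341 on the minus strand. These windows need not hold the start used in these cells, which was not measured. A match describes letters in this window and is not a measured binding site.

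The Polycomb and heterochromatin genes moved in both directions, and the 2 catalytic subunits of Polycomb repressive complex 2 went opposite ways. Ezh2, the subunit of dividing cells, was at 17.99 and 16.9 CPM in Tw2_48, compared with 177 and 171 CPM in Tw2_GM. It was at 8.36 and 10.7 CPM in Pax7_48, against 68.8 and 94.3 CPM in Pax7_GM. Ezh1, the subunit that prevails in resting and differentiated cells, was at 34.7 and 36.2 CPM in Tw2_48, compared with 17.0 and 13.8 CPM in Tw2_GM, and it was at 49.5 and 46.4 CPM in Pax7_48, against 20.2 and 19.9 CPM in Pax7_GM. In each lineage the cultures did not overlap for either gene. Ezh2 fell, with log2 fold changes of -3.25 ± 0.18 in the Tw2 lineage and -2.96 ± 0.18 in the Pax7 lineage, while Ezh1 rose by 1.16 ± 0.14 and 1.22 ± 0.14.

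Suz12, the core subunit that both enzymes need, was at 67.3 and 60.7 CPM in Tw2_48, compared with 162 and 124 CPM in Tw2_GM, and it was at 16.3 and 17.8 CPM in Pax7_48, against 16.3 and 30.7 CPM in Pax7_GM. It fell in the Tw2 lineage, with a log2 fold change of -1.14 ± 0.27 (limma adjusted p = 0.00398). In the Pax7 lineage the 2 cultures overlapped, and the log2 fold change of -0.37 ± 0.27 was not called (limma adjusted p = 0.233). Cbx2 and Cbx6, which are subunits of Polycomb repressive complex 1, fell in both lineages, with log2 fold changes of -1.86 and -2.05 in the Tw2 lineage and -1.68 and -1.86 in the Pax7 lineage. Of the heterochromatin proteins, Cbx1 (HP1 beta) fell in the Tw2 lineage, with a log2 fold change of -0.82 there (-0.36, not called, with size factors) and of -0.23, not called, in the Pax7 lineage. Cbx5 (HP1 alpha) rose in the Pax7 lineage, with a log2 fold change of 0.86 (0.49, not called, with quantile normalization), and had one of 0.30, not called, in the Tw2 lineage.

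Within 1 library, the ratio of 2 related genes per kilobase of transcript does not depend on how libraries are scaled, though it still carries each gene's GC content. The pairs were chosen after their values were seen and are given without a test. Ezh2 over Ezh1 was 0.783 and 0.706 in Tw2_48, against 15.7 and 18.7 in Tw2_GM, and 0.255 and 0.350 in Pax7_48, against 5.15 and 7.17 in Pax7_GM. Ezh2 was thus the more abundant transcript in growth medium and Ezh1 at 48, in all 8 libraries. Uhrf1 over Uhrf2 was 0.140 and 0.195 in Tw2_48, against 2.69 and 2.86 in Tw2_GM, and 0.311 and 0.277 in Pax7_48, against 4.46 and 3.40 in Pax7_GM, which is again a change of the prevailing gene in both lineages.

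**Figure D3:**
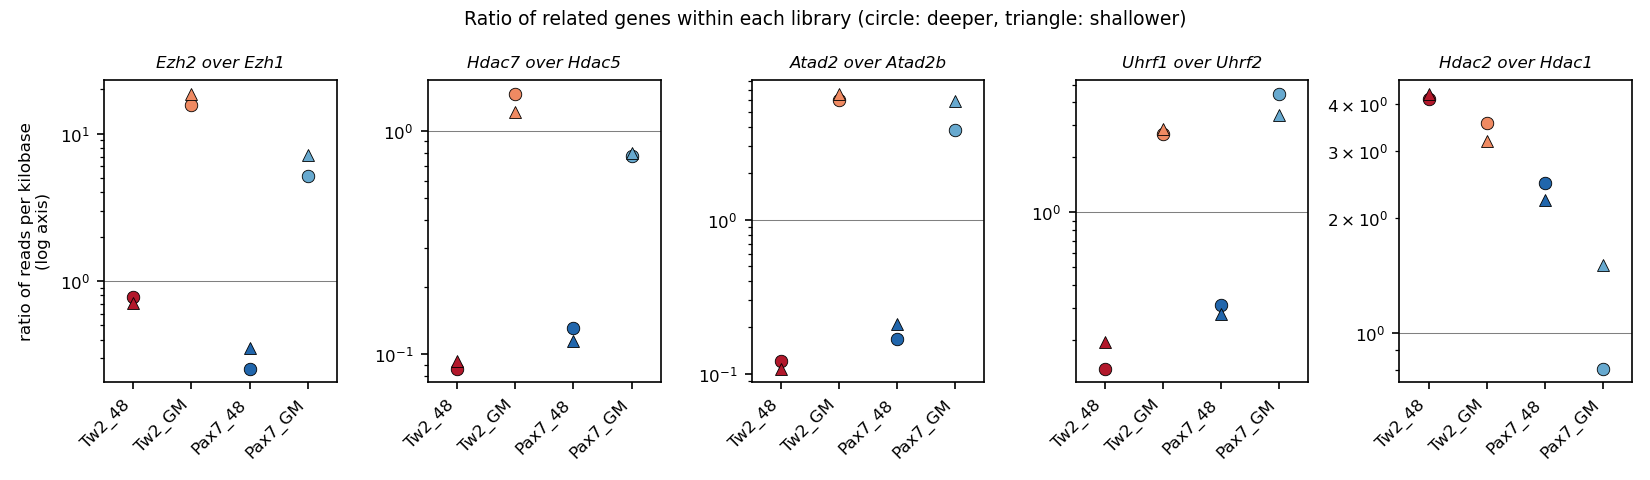
Ratio of reads per kilobase of transcript between related chromatin genes within each library, on a log axis, with 1 panel per pair; the grey line marks equal levels. Ezh2 over Ezh1, Atad2 over Atad2b and Uhrf1 over Uhrf2 lie above 1 in all 4 growth medium libraries and below 1 in all 4 libraries of the 48 cultures.

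Atad2 encodes an ATPase with a bromodomain that binds acetylated histones on newly replicated chromatin, and it had the widest range of the bromodomain genes. It was at 4.59 and 3.51 CPM in Tw2_48, compared with 212 and 168 CPM in Tw2_GM. It was at 1.503 and 2.09 CPM in Pax7_48, against 10.97 and 28.2 CPM in Pax7_GM. The cultures did not overlap in either lineage, but the 2 Pax7_GM libraries were themselves far apart. Atad2 fell, with log2 fold changes of -5.24 ± 0.37 in the Tw2 lineage (limma adjusted p = 2.46e-06) and -2.75 ± 0.37 in the Pax7 lineage (limma adjusted p = 0.000161). Atad2 too reached 10 CPM in growth medium libraries only and is listed through them, so these p-values are no separate support for its fall.

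Atad2b, the relative of Atad2, was at 53.7 and 46.0 CPM in Tw2_48, compared with 49.9 and 36.0 CPM in Tw2_GM, and it was at 12.7 and 14.0 CPM in Pax7_48, against 4.06 and 6.75 CPM in Pax7_GM. It rose in the Pax7 lineage, by 1.19 ± 0.23 on the log2 scale, and its libraries overlapped in the Tw2 lineage (0.22 ± 0.23, limma adjusted p = 0.390). Atad2 over Atad2b per kilobase was 0.121 and 0.108 in Tw2_48, against 6.02 and 6.59 in Tw2_GM, and 0.168 and 0.211 in Pax7_48, against 3.82 and 5.90 in Pax7_GM. Brd8, a subunit of a histone acetyltransferase complex, fell in the Tw2 lineage, with a log2 fold change of -1.04 there and of -0.49, not called, in the Pax7 lineage.

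All 11 SWI/SNF and ARID genes had negative log2 fold changes in the Tw2 lineage, where 9 of them fell and the values ran from -1.62 to -0.37. Of all genes tested 48.9% fell in this lineage. Of the 9 calls, that of Arid2 was lost with size factors (-0.37, limma adjusted p = 0.0823), and that of Arid3a with size factors, at 0.06, and without any 1 of 6 libraries. In the Pax7 lineage 5 of 11 fell, which is 45.5% and close to the 40.5% of all genes tested that fell there. None rose, and the range was from -1.46 to 0.73. The 5 that fell were Smarcd1, Smarcd2, Smarcb1, Smarcc1 and Arid1a, all subunits of the BAF complexes, and each of them fell in the Tw2 lineage too. Smarca5, the ATPase of the ISWI remodelers, was at 32.04 and 31.1 CPM in Tw2_48, compared with 103 and 89.9 CPM in Tw2_GM, and it was at 7.70 and 6.94 CPM in Pax7_48, against 7.45 and 22.0 CPM in Pax7_GM. It fell in the Tw2 lineage, with a log2 fold change of -1.58 ± 0.38 (limma adjusted p = 0.00454). In the Pax7 lineage the deeper growth medium library lay between the 48 libraries, and the log2 fold change of -0.75 ± 0.38 was not called (limma adjusted p = 0.105). Arid4b, a subunit of Sin3 corepressor complexes, was at 35.5 and 26.7 CPM in Tw2_48, compared with 55.6 and 42.5 CPM in Tw2_GM, and it was at 8.55 and 6.42 CPM in Pax7_48, against 2.57 and 6.17 CPM in Pax7_GM. Neither change in Arid4b was called, at log2 fold changes of -0.64 and 0.73.

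Among the CHD remodelers Chd3 stood alone in size. Chd3, an ATPase of the nucleosome remodeling and deacetylase complex, was at 755 and 687 CPM in Tw2_48, compared with 159 and 147 CPM in Tw2_GM, and it was at 401 and 370 CPM in Pax7_48, against 107 and 132 CPM in Pax7_GM. The 48 libraries were the highest 4, and Chd3 rose by 2.23 ± 0.15 on the log2 scale in the Tw2 lineage and by 1.69 ± 0.15 in the Pax7 lineage (limma adjusted p = 1.72e-06 and 1.25e-05). Chd7 rose in both as well, with log2 fold changes of 0.47 and 0.85, though its Tw2 call was lost with the GC and length trend removed (0.08, limma adjusted p = 0.614) and without any 1 of 5 libraries. Chd1, which works at transcribed genes, was at 36.0 and 33.4 CPM in Tw2_48, compared with 124 and 96.4 CPM in Tw2_GM, and it was at 12.5 and 9.82 CPM in Pax7_48, against 14.8 and 24.3 CPM in Pax7_GM. It fell, with log2 fold changes of -1.63 ± 0.24 in the Tw2 lineage and -0.73 ± 0.24 in the Pax7 lineage, and Chd6 and Chd1l also fell in both. The Pax7 calls of Chd1 and Chd6 were lost without the shallower Pax7_GM library (limma adjusted p = 0.0591 and 0.0786) and without 1 of the Pax7_48 libraries, the shallower for Chd1 and the deeper for Chd6 (limma adjusted p = 0.137 and 0.183). Chd1l, a remodeler of DNA damage sites, was at 5.97 and 7.24 CPM in Tw2_48, compared with 15.8 and 17.3 CPM in Tw2_GM, and it was at 11.6 and 10.2 CPM in Pax7_48, against 17.7 and 17.6 CPM in Pax7_GM.

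Of the 5 deacetylases 2 rose, and at least 2 fell, in each lineage. Of all genes tested 35.3% rose and 48.9% fell in the Tw2 lineage, and 38.8% and 40.5% in the Pax7 lineage. Hdac11, the only class IV enzyme, was at 123.1 and 121.2 CPM in Tw2_48, compared with 6.16 and 3.45 CPM in Tw2_GM. It was at 135 and 149 CPM in Pax7_48, against 16.1 and 13.9 CPM in Pax7_GM. All 4 libraries of the 48 cultures lay between 121.2 and 149 CPM, far over growth medium, and Hdac11 rose by 4.45 ± 0.22 on the log2 scale in the Tw2 lineage (limma adjusted p = 2.73e-07) and by 3.16 ± 0.22 in the Pax7 lineage (limma adjusted p = 2.92e-06).

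The 2 class IIa enzymes, which hold back Mef2, moved in opposite directions. Hdac7 was at 8.59 and 9.36 CPM in Tw2_48, compared with 82.7 and 73.6 CPM in Tw2_GM, and it was at 16.6 and 15.6 CPM in Pax7_48, against 63.4 and 56.3 CPM in Pax7_GM. Hdac5 was at 114 and 116 CPM in Tw2_48, compared with 64.6 and 69.3 CPM in Tw2_GM, and it was at 146 and 155 CPM in Pax7_48, against 93.9 and 81.0 CPM in Pax7_GM. Neither gene overlapped between the cultures of a lineage. Hdac7 fell, with log2 fold changes of -2.99 ± 0.14 in the Tw2 lineage and -1.83 ± 0.14 in the Pax7 lineage, and Hdac5 rose by 0.77 ± 0.13 and 0.78 ± 0.13. Per kilobase, Hdac7 over Hdac5 was 0.0865 and 0.0930 in Tw2_48, against 1.47 and 1.22 in Tw2_GM, and 0.131 and 0.115 in Pax7_48, against 0.775 and 0.798 in Pax7_GM. Of the class I enzymes, Hdac1 fell in both lineages, with log2 fold changes of -0.997 and -1.23. Hdac2 fell in the Tw2 lineage (-0.72 ± 0.26, limma adjusted p = 0.0322, with the call lost without any 1 of the 4 Tw2 libraries, with size factors, at -0.26, and with the GC and length trend removed, at -0.31) and had a log2 fold change of -0.18, not called, in the Pax7 lineage.

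Smyd1, a methyltransferase of heart and skeletal muscle that works in sarcomere assembly, was the most strongly raised methyltransferase. It was at 860 and 836 CPM in Tw2_48, compared with 40.1 and 32.9 CPM in Tw2_GM. It was at 1026 and 1007 CPM in Pax7_48, against 153 and 136 CPM in Pax7_GM. Both 48 groups lay far over growth medium, and Smyd1 rose by 4.51 ± 0.14 on the log2 scale in the Tw2 lineage (limma adjusted p = 3.30e-08) and by 2.81 ± 0.14 in the Pax7 lineage (limma adjusted p = 6.14e-07). Its relatives Smyd4 and Smyd5 went the other way. Smyd4 was at 24.1 and 21.9 CPM in Tw2_48, compared with 94.4 and 108 CPM in Tw2_GM, and it was at 28.8 and 30.4 CPM in Pax7_48, against 141 and 130 CPM in Pax7_GM. Smyd5 was at 39.0 and 33.8 CPM in Tw2_48, compared with 87.2 and 84.4 CPM in Tw2_GM, and it was at 64.9 and 69.8 CPM in Pax7_48, against 132 and 99.7 CPM in Pax7_GM. Both fell, with log2 fold changes in the Tw2 and Pax7 lineages of -2.09 and -2.15 for Smyd4 and -1.22 and -0.76 for Smyd5. Kmt2a fell in both, with log2 fold changes of -0.95 and -1.14, while Kmt2c, Kmt2e and Setd2 were called in neither lineage.

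The demethylases had the highest median of the classes: their log2 fold changes had a median of 0.08 in the Tw2 lineage and 0.61 in the Pax7 lineage. In these lineages 2 and 4 of 10 rose, beside 35.3% and 38.8% of all genes tested. Kdm4b, which acts on histone H3 lysines of silent chromatin, was at 61.8 and 67.5 CPM in Tw2_48, compared with 32.1 and 33.3 CPM in Tw2_GM, and it was at 70.7 and 74.6 CPM in Pax7_48, against 41.9 and 39.7 CPM in Pax7_GM. It rose by 0.96 ± 0.12 on the log2 scale in the Tw2 lineage and by 0.82 ± 0.12 in the Pax7 lineage, with no overlap. Its relative Kdm4c was at 54.3 and 49.7 CPM in Tw2_48, compared with 30.3 and 27.3 CPM in Tw2_GM, and it was at 17.0 and 16.9 CPM in Pax7_48, against 7.99 and 12.5 CPM in Pax7_GM. It rose by 0.83 ± 0.19 and 0.70 ± 0.19 in the same lineages. Kdm7a, which removes repressive methyl marks, was at 20.8 and 17.8 CPM in Tw2_48, compared with 11.9 and 10.4 CPM in Tw2_GM, and it was at 9.49 and 9.95 CPM in Pax7_48, against 1.63 and 5.40 CPM in Pax7_GM. It was called in the Pax7 lineage (1.39 ± 0.35, limma adjusted p = 0.00598) and not in the Tw2 lineage (0.74 ± 0.35, limma adjusted p = 0.0778). Kdm3a was also called in the Pax7 lineage only, at a log2 fold change of 0.61. That call was lost from the 2 groups alone and without either Pax7_48 library or either Tw2_48 library. Without the deeper Pax7_GM library it was lost too, at 0.29. Kdm2b and Kdm1a fell in both lineages, but Kdm1a lost its call with size factors, at -0.06 in the Tw2 and -0.17 in the Pax7 lineage. Its Pax7 call was also lost with the GC and length trend removed (-0.26), from the 2 groups alone, and without the shallower Pax7_48 library (limma adjusted p = 0.079, 0.08 and 0.0922).

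Genes of cell division and of muscle differentiation moved with the cultures, and their part in the changes of the chromatin genes was not tested. Of 26 proliferation genes listed for this purpose 24 were tested, and all 24 fell in each lineage. Their summed level was 383 and 395 CPM in Tw2_48, compared with 5334 and 5148 CPM in Tw2_GM, and it was 459 and 409 CPM in Pax7_48, against 3580 and 3438 CPM in Pax7_GM. Of 14 genes of differentiating muscle 13 were tested, of which 13 rose in the Tw2 lineage and 12 in the Pax7 lineage. Their summed level was 16030 and 15520 CPM in Tw2_48, compared with 404 and 329 CPM in Tw2_GM, and it was 13690 and 14050 CPM in Pax7_48, against 1695 and 1491 CPM in Pax7_GM.

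The size of the change between cultures differed between the lineages for 9 chromatin genes, of which 2 had a positive and 7 a negative difference (Tw2 change minus Pax7 change, limma adjusted p under 0.05). Over all genes tested 9.72% had a positive and 9.01% a negative difference. Of the 24 proliferation genes tested 13 had a negative and 0 a positive difference, and of the 13 differentiating muscle genes 13 had a positive one, and their part in the differences of the chromatin genes was not tested. Smyd1 rose more in the Tw2 lineage, by 1.70 ± 0.20 on the log2 scale (limma adjusted p = 0.00117), and Hdac11 by 1.29 ± 0.31 (limma adjusted p = 0.0232). For both genes the growth medium levels were apart, with Tw2_GM below Pax7_GM and no overlap, while the log2 fold changes of Tw2_48 over Pax7_48 were -0.26 (Smyd1) and -0.21 (Hdac11), neither called. The genes that fell more in the Tw2 lineage were Atad2 (difference -2.49 ± 0.52), Hmgb3 (-1.66 ± 0.30), Hmgb2 (-1.38 ± 0.31), Hdac7 (-1.16 ± 0.19), Dnmt1 (-0.82 ± 0.20), Hmgn2 (-0.73 ± 0.20) and Hmga2 (-0.68 ± 0.19), of which 4 are high mobility group genes. At 48, Tw2_48 over Pax7_48 was not called for Atad2 (0.85), Hmgb3 (-0.32), Hmgb2 (0.38), Hmgn2 (-0.22) or Hmga2 (0.21). Hdac7 (-0.78) and Dnmt1 (-0.48) were lower in Tw2_48. Atad2, Hmgb3 and Hmgb2 reached 10 CPM in growth medium libraries only. The number with a negative difference depended on the Pax7_GM libraries: it was 37 without the shallower one, 13 without the deeper one, and 16 of 64 once the trend with GC content and transcript length was removed, when 22.2% of all genes had a negative difference. Without any 1 of the other 6 libraries it was 2 or 3. Smyd1 and Hdac7 were the only 2 of the 9 called under every alternative run.

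Between the lineages, most of the listed chromatin genes were higher in Tw2 than in Pax7 cells in both cultures. In growth medium 44 of the 65 genes were higher and 7 lower in Tw2_GM than in Pax7_GM (limma adjusted p under 0.05), where 48.7% of all genes tested were higher and 26% lower. The median log2 fold change was 0.95 for the chromatin genes and 0.34 for all genes tested. At 48, 37 were higher and 7 lower in Tw2_48 than in Pax7_48, against 43.3% and 22.1% of all genes, with medians of 0.62 and 0.27. The higher genes at 48 numbered 20 without the deeper Tw2_48 library and 22 without the shallower Pax7_48 library. The lower genes in growth medium numbered 4 without the deeper Pax7_GM library and 3 without any 1 of the 6 libraries of the other groups, and at 48 they numbered 3 or 4 without any 1 library of the 48 groups. In both cultures 35 genes were higher, which is 79.5% of those higher in growth medium and 94.6% of those higher at 48, and 4 were lower (Smyd4, Smyd5, Hdac5 and Ezh1). Of all genes tested 36.98% were higher in both cultures, which is 75.9% of those higher in growth medium and 85.3% of those higher at 48. A further 14.7% of all genes were lower in both, and 3.28% were called in opposite directions. The 1 gene called in opposite directions was Hdac7, higher in Tw2_GM (log2 fold change 0.38, but -0.48 with size factors and 1.08 with the trend in GC content and length removed) and lower in Tw2_48 (-0.78). Size factors taken from the listed genes alone moved the median of all genes to -0.50 in growth medium and -0.36 at 48, and that of the chromatin genes to 0.09 and 0.00. On that scale 23 chromatin genes were higher and 21 lower in growth medium (25.5% and 53.9% of all genes), and 10 higher and 24 lower at 48 (17.3% and 48.3%), so the direction of small lineage differences rests on the scaling. Markers of fibro-adipogenic progenitors, connective tissue cells of muscle, also differed between the lineages, in both directions. Of 11 such genes 4 were tested, of which 1 was higher and 2 were lower in Tw2 in each culture. The higher one was Col3a1, a collagen chain, with log2 fold changes of 0.68 at 48 and 1.04 in growth medium. It was at 987 and 940 CPM in Tw2_GM, set beside 462 and 477 CPM in Pax7_GM. The lower ones were Col1a2 and Prrx1. Col1a2, another collagen chain, was at 6.84 and 24.1 CPM in Tw2_48, set beside 270 and 246 CPM in Pax7_48. It was at 3.61 and 3.28 CPM in Tw2_GM, set beside 424 and 387 CPM in Pax7_GM. Prrx1, a transcription factor of mesenchymal cells, had log2 fold changes of -3.37 at 48 and -3.01 in growth medium. The summed level of the 4 genes was 204 and 243 CPM in Tw2_48, next to 431 and 403 CPM in Pax7_48, and 999 and 948 CPM in Tw2_GM, next to 928 and 917 CPM in Pax7_GM. The part of such cells in the lineage differences was not tested. The libraries of the 2 lineages did not overlap for 59 of the 65 genes in growth medium and for 61 at 48, against 87.8% and 89.6% of all genes tested.

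The lineage difference ran with the base composition of the transcripts, in the chromatin genes as in all genes. Across the 64 chromatin genes with an annotated transcript, Spearman's rho between GC content and the log2 fold change of Tw2 over Pax7 was -0.835 in growth medium and -0.731 at 48, against -0.709 and -0.636 over all genes. These are descriptions across genes of the same 8 libraries, not tests over samples. The 32 chromatin genes at or below the median GC content of 47.6% had a median log2 fold change of 1.53 in growth medium, and the 32 above it one of 0.32. After the trend with GC content and length was removed in each library the medians were 0.66 and 0.79. With that removal 55 genes were higher and 2 lower in Tw2_GM, where 63.8% of all genes were higher and 14.2% lower, and 35 were higher and 3 lower in Tw2_48, where 47.3% and 12.5% of all genes were. The share of the difference that the removal takes away cannot be told apart from biology that follows base composition, so values with the trend removed are given beside the largest lineage differences.

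**Figure D4:**
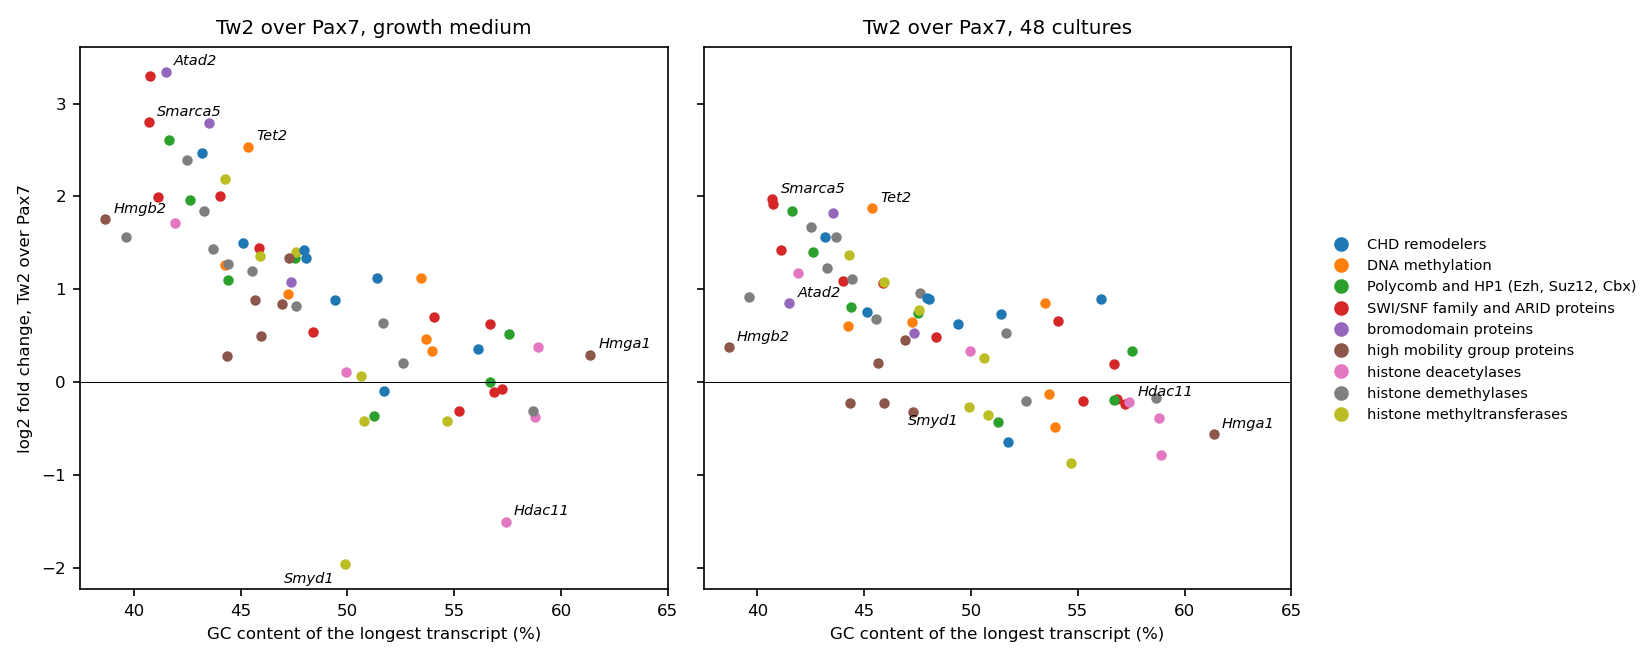
Log2 fold change of Tw2 over Pax7 against the GC content of the longest annotated transcript for 64 chromatin genes, in growth medium on the left and in the 48 cultures on the right, coloured by class. In both panels AT-rich genes such as Smarca5 lie high, and Smyd1 and Hdac11 lie lowest in growth medium, near or below 0 at 48.

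The genes most raised in the Tw2 lineage in growth medium were Atad2 (log2 fold change 3.34 ± 0.37, limma adjusted p = 0.000143), Arid4b (3.29 ± 0.32), Smarca5 (2.80 ± 0.38), Atad2b (2.79 ± 0.23), Suz12 (2.61 ± 0.27) and Tet2 (2.54 ± 0.25). After removal of the GC and length trend they were at 1.93 for Atad2, 1.78 for Arid4b, 1.26 for Smarca5, 1.58 for Atad2b, 1.34 for Suz12 and 1.65 for Tet2, and each was still called. Both Tw2_GM libraries lay over both Pax7_GM libraries for all 6 genes, by the levels given with each class. At 48 the same genes except Atad2 were again among the most raised: Smarca5 (1.97 ± 0.38, and 0.96 with the trend removed), Arid4b (1.92 ± 0.32, and 0.93), Tet2 (1.88 ± 0.25, and 1.25), Suz12 (1.84 ± 0.27, and 1.05) and Atad2b (1.82 ± 0.23, and 0.99). Atad2 itself had a log2 fold change of 0.85 ± 0.37 at 48, which was not called (limma adjusted p = 0.0709), and one of -0.07 with the trend removed. The 9 genes that kept their call at 48 under every alternative were Suz12, Atad2b, Arid4b, Cbx5, Chd1, Tet2, Kdm4c, Smarcad1 and Smarca5. Of the genes named here, Arid4b and Tet2 reached 10 CPM in Tw2 libraries only. They are listed through that lineage, so their higher level in Tw2 is no separate support for a lineage difference. Every gene was also listed for a 2-fold difference from Tw2_GM in some group, so these ranks and calls describe the listed genes.

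Kdm6a, a demethylase of the Polycomb mark encoded on the X chromosome, was at 51.6 and 45.2 CPM in Tw2_48, compared with 13.5 and 15.6 CPM in Pax7_48. In growth medium it was at 56.6 and 48.8 CPM in Tw2_GM, compared with 5.01 and 16.2 CPM in Pax7_GM. The lineages did not overlap in either culture, and the log2 fold changes were 1.67 ± 0.41 at 48 and 2.40 ± 0.41 in growth medium (0.82 and 1.11 with the trend removed). Kdm6a escapes X inactivation, and Xist, the RNA that coats the silenced X, stood at 351 and 272 CPM in Tw2_48, compared with 70.9 and 66.6 CPM in Pax7_48, and at 1188 and 659 CPM in Tw2_GM, compared with 45.9 and 175 CPM in Pax7_GM. No label gives the sex of the animals, and the part of sex in these values was not tested. The other demethylases were mostly on the same side: 8 of 10 were higher in Tw2 in each culture, but 5 of 10 at 48 with the trend removed, when Kdm3a, Kdm5a and Kdm7a (-0.29) lost their calls. Kdm4b was lower in Tw2_GM (log2 fold change -0.31 ± 0.12, and 0.36 with the trend removed).

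**Figure D5:**
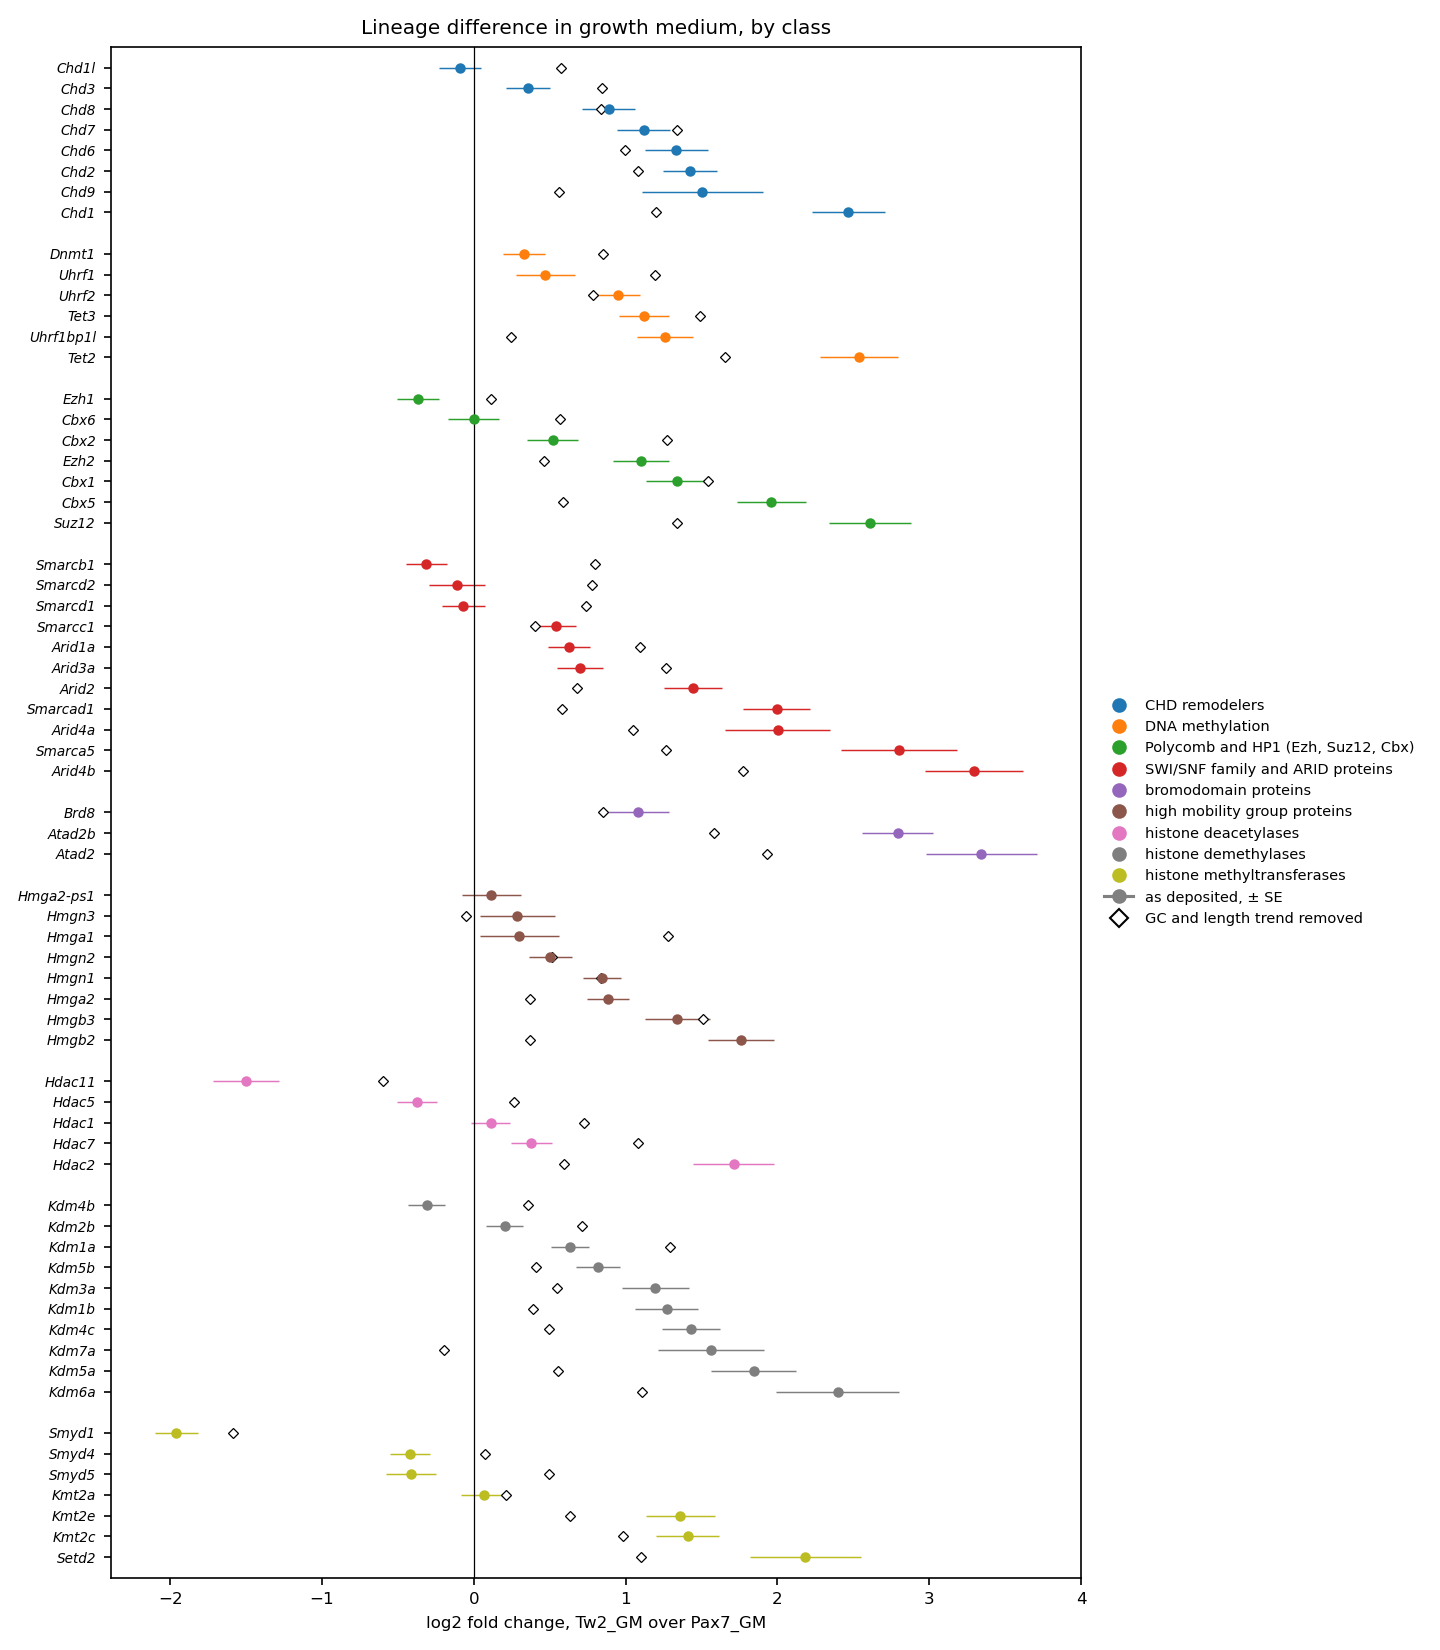
Log2 fold change of Tw2_GM over Pax7_GM for each of the 65 chromatin genes, grouped and coloured by class, with filled circles and bars of 1 SE for the deposited values and open diamonds for the values with the GC and length trend removed. Smyd1 and Hdac11 are the only genes well to the left of 0 by both, and many diamonds of the genes furthest right lie closer to 0.

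The genes lower in the Tw2 lineage were fewer. In growth medium Smyd1 had a log2 fold change of -1.96 ± 0.14 (limma adjusted p = 2.86e-05) and Hdac11 one of -1.50 ± 0.22 (limma adjusted p = 0.000392), and they were the only 2 of the 7 called under every alternative, with -1.58 and -0.60 once the trend was removed. The others were small: Smyd4 and Smyd5 (-0.42 each), Hdac5 (-0.38), Ezh1 (-0.36) and Kdm4b. With the trend removed, Smyd5 and Hdac5 were instead higher in Tw2_GM, at 0.50 and 0.26, and Smyd4 and Ezh1 were at 0.07 and 0.11, not called. At 48 the lower genes were Smyd5 (-0.87 ± 0.16), Hdac7 (-0.78 ± 0.14), Chd1l (-0.65 ± 0.14), Dnmt1 (-0.48 ± 0.14), Ezh1 (-0.43 ± 0.14), Hdac5 (-0.39 ± 0.13) and Smyd4 (-0.35 ± 0.13). Hdac7 and Smyd5 kept their call under every alternative, at -0.36 and -0.30 with the trend removed, when Chd1l and Dnmt1 (both -0.24) and Ezh1 (-0.15), Hdac5 (-0.03) and Smyd4 (-0.05) were not called. Beside these growth medium values, the summed level of the differentiating muscle genes was 404 and 329 CPM in Tw2_GM, compared with 1695 and 1491 CPM in Pax7_GM, and its part in the levels of Smyd1 and Hdac11 was not tested.

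By class, and on the deposited scale, the counts stand beside 48.7% higher and 26% lower of all genes in growth medium, and 43.3% and 22.1% at 48, to which those of several classes are close. Of the bromodomain genes 3 of 3 were higher in Tw2_GM, and 6 of 8 CHD remodelers were higher in Tw2 in each culture. The SWI/SNF and ARID genes had 8 of 11 higher in growth medium and 7 at 48, with none lower. The high mobility group genes differed between cultures: 5 of 8 were higher in Tw2_GM, and only Hmgn1 was higher in Tw2_48 (log2 fold change 0.46, and -0.19 with size factors). The deacetylases and methyltransferases were mixed, with 2 higher and 2 lower of 5 deacetylases in each culture, and 3 higher of 7 methyltransferases in each, 3 being lower in growth medium and 2 at 48. On the deposited scale Hdac2 was the deacetylase most raised in Tw2, with log2 fold changes of 1.71 ± 0.26 in growth medium and 1.17 ± 0.26 at 48. With the trend removed Hdac2 was at 0.60 and 0.50, below Hdac1 at 0.72 and 0.77. In growth medium it was then also below Hdac7, at 1.08. Hdac2 over Hdac1 per kilobase was 4.11 and 4.24 in Tw2_48, against 2.48 and 2.24 in Pax7_48, and 3.56 and 3.19 in Tw2_GM, against 0.806 and 1.51 in Pax7_GM. This ratio is not corrected for GC content, which is lower in the Hdac2 transcript than in that of Hdac1.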

How the data were processed

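RNA-seq libraries from 4 groups of 2 (Tw2_48, Tw2_GM, Pax7_48, Pax7_GM) were analysed. Per the submitters' processing notes the tools were TopHat2 2.0.0 and DESeq2 1.6.3 and the genome GRCm38 (mm10). The counting tool, annotation and strand are not given in the sources used here. The authors deposited 1 table with a mean CPM per group and the log2 fold change from Tw2_GM to the other groups, and these fold changes equal log2 of the ratio of (mean CPM + 1) to within 1.4e-11. All 5457 listed genes are at least 2-fold different from Tw2_GM in some group, and each tested gene is at 10 CPM or more in at least 4 libraries.

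From each deposited mean CPM the whole reads of its 2 libraries were recovered, with a tolerance of 1.1 times the rounding error. A single solution was found in all groups for 5452 genes, with all 65 chromatin genes among them, and 5 genes were left out. On means made from known reads the procedure returned the right reads for 5452 to 5457 of 5457 genes. The reads carry no replicate numbers. Implied library sizes were 5.18 to 13.7 M reads. A count of 0 allows up to 3 reads (95% limit), or 0.218 to 0.579 CPM. Such limits cover counting error only.

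As CPM values are not counts, the test was limma (3.58.1, under R 4.3.3) on log2(CPM + 1), fitted to the 8 libraries together with a mean for each group (4 residual and 4.02 prior degrees of freedom, prior SD 0.164), with Benjamini-Hochberg adjustment over 5452 genes per comparison, and a gene is called, and said to rise, fall or be higher or lower, at an adjusted p under 0.05. Folds are on the log2(CPM + 1) scale, which understates low genes. Requiring a mean of 1 CPM left out 0 genes. Median standard errors were 0.16, and 0.23 for the difference between lineages.

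Alternatives were pseudocounts of 0.25 and 5, a mean of at least 20 CPM, size factors, quantile normalization, a trended prior, voom on the recovered reads, the 2 groups alone, each library left out, and removal per library of the trend with GC content and length (splines with 5 degrees of freedom each, 5431 genes with a value, from the longest protein-coding transcript in GENCODE for GRCm38).

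Library values and full tests are given for the 6 largest changes each way in the lineage comparisons and the 5 largest in the others, taken from called genes with no overlap between the libraries of the groups, and for the widest-ranging gene of each class. The genes and lists were chosen with earlier results of these data known.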

Additional observations from a re-analysis of the deposited data

Results flagged for a closer look

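For 9 chromatin genes the change from growth medium to the 48 cultures differed between the lineages by the test of the difference itself (Tw2 change minus Pax7 change on the log2 scale, limma adjusted p under 0.05). The difference was 1.70 for Smyd1 and 1.29 for Hdac11, both of which rose more in the Tw2 lineage. It was -2.49 for Atad2, -1.66 for Hmgb3, -1.38 for Hmgb2, -1.16 for Hdac7, -0.82 for Dnmt1, -0.73 for Hmgn2 and -0.68 for Hmga2, all of which fell more in the Tw2 lineage. Once the GC and length trend was taken out, the values were 1.57 for Smyd1, 0.95 for Hdac11, -2.0 for Atad2, -1.64 for Hmgb3, -0.83 for Hmgb2, -1.44 for Hdac7, -1.09 for Dnmt1, -0.62 for Hmgn2 and -0.45 for Hmga2, and all 9 were still called. The 2 Pax7_GM libraries, which enter each of these differences, were further apart than those of any other group, and the part of that spread was not tested. Smyd1, Hdac7 and Hmgb3 were also called when any 1 library was left out, and the other 6 lost their call without at least 1 library.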

How the results depend on the processing

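The changes between cultures depended little on the processing and the lineage differences much more. Of the calls on single genes, 34 of 39 lower and 7 of 9 higher in the Tw2 lineage at 48, and 27 of 31 lower and 11 of 13 higher in the Pax7 lineage, held under every alternative. For Tw2 over Pax7, 22 of 44 higher and 2 of 7 lower in growth medium did so, and 9 of 37 higher and 2 of 7 lower at 48. The Tet2 call in the Tw2 lineage was lost with a pseudocount of 0.25 (limma adjusted p = 0.0543) and without any of 5 single libraries. No paired analysis was possible because the deposited means carry no replicate numbers. With 2 libraries per group, the precision rests on a spread shared over all groups, and a library left alone in its group is assumed to vary like the others. Size factors and quantiles were taken from the listed genes, which were selected for differences from Tw2_GM.

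With size factors the counts of chromatin genes became 23 higher and 21 lower for Tw2 over Pax7 in growth medium, 10 higher and 24 lower at 48, 16 higher for 48 over GM in the Tw2 lineage, and 3 with a negative difference between lineages. With quantile normalization 15 were lower in growth medium, and 24 higher and 15 lower at 48. From the 2 groups alone 2 were lower in growth medium. With the GC and length trend removed 2 were lower in growth medium and 3 at 48, and 16 had a negative difference. Leaving out 1 library at a time gave 41 to 47 higher and 3 to 9 lower in growth medium, 20 to 41 higher and 3 to 8 lower at 48, 7 to 11 higher and 37 to 46 lower for 48 over GM in the Tw2 lineage, and 12 to 23 higher and 28 to 41 lower in the Pax7 lineage. For the difference between lineages it gave 1 to 3 positive and 2 to 37 negative. The 20 higher genes at 48 are without the deeper Tw2_48 library and 22 without the shallower Pax7_48 library, and the 23 higher in the Pax7 lineage are without the shallower Pax7_GM library. The causes were not tested.

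Counting values called before or after the change of setting, a log2 fold change of a single gene turned its sign in 54 instances, in 49 of them between the lineages. With size factors, for Tw2 over Pax7 in growth medium, the log2 fold change was -0.04 for Kdm5b, -0.73 for Hmga2-ps1, -0.12 for Arid3a, -0.51 for Chd3, -0.33 for Cbx2, -0.48 for Hdac7, -0.03 for Hmgn1, -0.74 for Hdac1, -0.24 for Arid1a, -0.36 for Hmgn2, -0.23 for Kdm1a, -0.65 for Kdm2b, -0.54 for Dnmt1, -0.80 for Kmt2a and -0.33 for Smarcc1. With size factors, for Tw2 over Pax7 at 48, the log2 fold change was -0.52 for Hmga2-ps1, -0.03 for Uhrf1bp1l, -0.42 for Hmga2, -0.03 for Chd8, -0.19 for Hmgn1, -0.11 for Brd8, -0.29 for Hdac1, -0.46 for Arid1a, -0.13 for Kdm1a, -0.39 for Kmt2a and -0.17 for Smarcc1. With size factors, for 48 over GM in the Tw2 lineage, the log2 fold change was 0.40 for Kdm5b and 0.06 for Arid3a. With quantile normalization, for Tw2 over Pax7 in growth medium, the log2 fold change was -0.07 for Cbx2, -0.19 for Hdac7, -0.51 for Hdac1, -0.04 for Hmgn2, -0.40 for Kdm2b and -0.50 for Kmt2a. With quantile normalization, for Tw2 over Pax7 at 48, the log2 fold change was -0.07 for Hdac1. With quantile normalization, for 48 over GM in the Tw2 lineage, the log2 fold change was 0.00 for Arid3a. With the GC and length trend removed, for Tw2 over Pax7 in growth medium, the log2 fold change was 0.80 for Smarcb1, 0.07 for Smyd4, 0.11 for Ezh1, 0.26 for Hdac5, 0.78 for Smarcd2, 0.57 for Cbx6, 0.74 for Smarcd1, 0.36 for Kdm4b, 0.57 for Chd1l, -0.20 for Kdm7a and 0.50 for Smyd5. With the GC and length trend removed, for Tw2 over Pax7 at 48, the log2 fold change was 0.53 for Smarcb1, -0.07 for Uhrf1bp1l, 0.38 for Smarcd2, -0.29 for Kdm7a and -0.46 for Hmgb2. With the GC and length trend removed, for 48 over GM in the Tw2 lineage, the log2 fold change was -0.49 for Tet3. Without the deeper Pax7_GM library Setd2 was at -0.44 for 48 over GM in the Pax7 lineage, and without the shallower one at 0.87.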

Other observations

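Other chromatin genes outside the symbol rule also fell more often than they rose at 48. Of 132 such genes 66 were tested, and 46 fell and 3 rose at 48 in the Tw2 lineage (median log2 fold change -1.03), beside 48.9% and 35.3% of all genes tested. In the Pax7 lineage 32 fell and 8 rose (-0.46), beside 40.5% and 38.8% of all genes. The 2 subunits of the chromatin assembly factor that places histones on replicated DNA fell furthest. Chaf1a was at 4.08 and 3.51 CPM in Tw2_48, compared with 113 and 116 CPM in Tw2_GM, and it was at 8.27 and 5.50 CPM in Pax7_48, against 106 and 87.2 CPM in Pax7_GM. Its log2 fold changes were -4.59 and -3.65 in the Tw2 and Pax7 lineages, and those of Chaf1b were -4.15 and -4.11. Suv39h1, a methyltransferase of heterochromatin, fell by 2.81 in the Tw2 lineage and by 2.55 in the Pax7 lineage on the same scale. Sirt2, a deacetylase of another class, was at 137 and 152 CPM in Tw2_48, compared with 52.6 and 53.7 CPM in Tw2_GM, and it was at 194 and 197 CPM in Pax7_48, against 73.2 and 64.2 CPM in Pax7_GM. It rose by 1.43 and 1.497 on the log2 scale, and neither Chaf1a nor Sirt2 overlapped between the cultures of a lineage.

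Between the lineages 49 of the 66 were higher and 3 lower in Tw2_GM than in Pax7_GM (median 1.18), beside 48.7% and 26% of all genes, and 40 were higher and 8 lower in Tw2_48 than in Pax7_48 (0.74), beside 43.3% and 22.1%. Mtf2, an accessory subunit of Polycomb repressive complex 2, was at 60.05 and 45.3 CPM in Tw2_GM, compared with 4.74 and 6.17 CPM in Pax7_GM, a log2 fold change of 3.05 (1.44 after the GC and length trend was taken out). The difference of the changes between lineages was called for 6 genes, all negative, beside 9.01% of all genes, among them Mtf2 (-1.37) and Eed (-1.26), a core subunit of the same complex.

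Of the markers of other cells, 6 of 8 for pericytes and smooth muscle were among the listed genes. For immune cells 1 of 9 was listed, and for endothelium and glia 0. The pericyte and smooth muscle genes together reached 8867 and 8481 CPM for Tw2_48, of which Acta2 alone made up 8616 and 8229. For Pax7_48 the sum was 5259 and 5550, with Acta2 at 5139 and 5421. Growth medium sums were smaller: 872.8 and 935.5 for Tw2_GM, 1062 and 930.7 for Pax7_GM. Of the 6 pericyte markers 2 were higher and 2 lower in Tw2_GM than in Pax7_GM, with 4 higher and 1 lower at 48. Of 7 listed satellite cell and myoblast genes 5 rose and 2 fell at 48 in each lineage. Their part in the levels of the chromatin genes was not tested.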
